A study of Homo sapiens with 3 samples.

Results

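The miRNAs described here are known for routes that skip a step of the usual pathway, or are grouped by sequence with one that is. They are hsa-miR-320a, hsa-miR-320b, hsa-miR-320c, hsa-miR-320d, hsa-miR-484, hsa-miR-877-5p and hsa-miR-451a (written below without the prefix for human), 7 of the 2588 mature human miRNAs listed in each count file. They were chosen by name, with earlier results of these data known. The choice followed how they are known to be made or, for miR-320b, miR-320c and miR-320d, their family. The libraries came from SK-MEL-2 melanoma cells, a human line in long-term culture, grown in RPMI-1640 medium with fetal bovine serum. The control library came from cells with no treatment, and the others from cells treated with a plasma jet, which blows weakly ionised gas onto the culture, for 3 min or for 5 min. RNA was taken on Day 2 in all 3 groups. With a single library in each group nothing can be tested against replicates and no p-value is given: a ratio sets one library against another, and intervals show the error of counting alone.

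Most miRNAs are cut from a long primary transcript by Drosha in the nucleus, and the resulting hairpin is cut by Dicer in the cytoplasm. The miR-320a hairpin is instead transcribed directly with a capped end, so no Drosha cut is needed, and the arm away from the cap becomes the mature miRNA; miR-484 has also been described as Drosha-independent. miR-320b, miR-320c and miR-320d are grouped with miR-320a by sequence. miR-877 is a mirtron, a short intron that is spliced out and folds into a Dicer substrate without Drosha. The miR-451a hairpin is cut by Drosha but is too short for Dicer, is sliced by the Argonaute protein AGO2 and is abundant in red blood cells. The counts carry no measure of Drosha, Dicer, splicing or AGO2 activity.

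The mature sequences show why counts within the miR-320 family cannot be fully separated. They are given from RefSeq (GRCh38.p14), which matched 5 of the 7 members by name. It held no mature entry for miR-320a or miR-451a. The seed (bases 2 to 8 from the 5′ end, the part that mainly pairs with target mRNAs) is in capitals.
miR-320b: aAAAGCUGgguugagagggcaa
miR-320c: aAAAGCUGgguugagagggu
miR-320d: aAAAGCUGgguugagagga
miR-320e: aAAGCUGGguugagaagg
miR-484: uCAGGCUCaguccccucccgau
miR-877-5p: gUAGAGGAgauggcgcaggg
miR-877-3p: uCCUCUUCucccuccucccag

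miR-320b and miR-320c share their first 19 bases and part at position 20 (C20U, counted from 1 at the 5′ end of miR-320b). miR-320d shares 18 bases with each and parts at position 19 (G19A). A read that ends before those positions fits all 3, and the handling of such reads is not given in the sources used here. Reads of miR-320a may also be shared with these, but without its sequence this was not compared. miR-320e, a further family entry, starts 1 base later, so its bases 2 to 8 are AAGCUGG and not the AAAGCUG of miR-320b, miR-320c and miR-320d. It differs from miR-320b at 1 aligned base (G17A in miR-320b numbering). Of the names in the RefSeq table, miR-4429 was the only further one with the seed AAAGCUG. It had 0, 1 and 0 counts in the control, 3 min and 5 min libraries. The seed of miR-320a was not compared, for want of an entry. miR-484 shares the seed CAGGCUC with miR-3155a and miR-3155b, and the seed UAGAGGA belonged to miR-877-5p alone. The GC content of miR-484 was 63.6% and that of miR-877-5p 65.0%, against a median of 47.6% over the 206 miRNAs with a sequence among the 231 past the count filter explained below. Of those 206, 22 had at least the GC content of miR-484, and miR-877-5p is not among the 206. miR-320b and miR-320c were at 50.0% and miR-320d at 47.4%.

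The hairpin of MIR877 (chromosome 6, 30584332 to 30584417, on GRCh38 in GENCODE v29) covers exactly 1 whole intron of ABCF1, from its first to its last base. Such an exact match held for 24 of the 1881 miRNA hairpins in that annotation (1.28%). MIR877 was chosen because it is known as a mirtron, so its match follows from that choice. The percentage only describes the annotation and does not test the match. The hairpins of MIR877 and MIR320B1 are shown because they display how the arms lie, with the mature sequences in capitals, from RefSeq (GRCh38.p14).
MIR877, chr6:30584332-30584417, plus strand: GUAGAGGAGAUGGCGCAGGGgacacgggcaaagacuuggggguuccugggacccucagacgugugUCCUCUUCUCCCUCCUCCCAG
MIR320B1, chr1:116671746-116671817, plus strand: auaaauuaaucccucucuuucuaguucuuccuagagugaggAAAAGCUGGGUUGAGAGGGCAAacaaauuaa

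The MIR877 hairpin begins with GU and ends with AG, the letters at which introns begin and end. These letters also follow from its choice as a mirtron. Both mature arms of the MIR877 hairpin sit at its very ends (bases 1 to 20 and 66 to 86 of 86). In MIR320B1 the single annotated mature sequence takes bases 42 to 63 of 72, on the 3′ side of the hairpin. All 6 hairpins of miR-320b, miR-320c and miR-320d have it on that side, starting at base 41 or 42. In MIR484 the mature sequence lies at the other side, at bases 8 to 29 of 79. The predicted minimum-energy folds held 19 to 25 base pairs in those 6 hairpins, 26 in MIR484 and 30 in MIR877.

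The 7 members come from 10 annotated hairpins, placed by name on GRCh38 with GENCODE v29, although the build the authors used is not given in the sources used here. The boundaries of a hairpin can differ between GENCODE and RefSeq, as they do for MIR320B1. MIR484 (chromosome 16, 15643294 to 15643372, plus strand) lies in an untranslated exon of NDE1, and an NDE1 transcript starts 27 bases before it. MIR320A (chromosome 8, 22244962 to 22245043, minus strand) lies in no annotated host gene, and a POLR3D transcript starts 61 bases upstream of it on the opposite strand. These were the 2 of 10 hairpins with the start of a transcript, other than of a miRNA gene, within 250 bases on either strand. The same held for 255 of all 1881 annotated miRNA hairpins (13.6%). The 6 hairpins of miR-320b, miR-320c and miR-320d had no such start nearer than 3106 bases. Of these, MIR320B1 (chromosome 1, 116671749 to 116671827), MIR320D1 (chromosome 13, 40727828 to 40727875) and MIR320D2 (chromosome X, 140926172 to 140926219) lie in no annotated host gene. MIR320B2 (chromosome 1, 224257004 to 224257141) lies in an intron of NVL on the same strand. MIR320C1 (chromosome 18, 21683510 to 21683597) and MIR320C2 (chromosome 18, 24321686 to 24321735) lie in introns of ABHD3 and OSBPL1A, which run on the opposite strand. MIR451A (chromosome 17, 28861369 to 28861440) lies in an exon of the long noncoding RNA AC024267.1, beside MIR144.

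Totals over all listed miRNAs were 1045482 counts in the control library, 966943 at 3 min and 615645 at 5 min, so 1 count was worth 0.956, 1.03 and 1.62 CPM (counts scaled to the library's total). The 7 members together held 536, 598 and 411 counts, or 0.0513%, 0.0618% and 0.0668% of the libraries. Among pigment-cell miRNAs, miR-204-5p, miR-211-5p, miR-146a-5p, miR-221-3p and miR-222-3p were all measured, with sums of 31920, 39468 and 25062 counts over a list of 10. Most of these counts were of miR-221-3p (23127, 29736 and 20382), while miR-211-5p had 128, 97 and 65. The other 5 of that list (50%), drawn from the miR-506 to miR-514 cluster, were at 0 in all 3 libraries. That compares with 62.7% of all 2588 listed miRNAs.

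miR-320a, reported to repress the glycolytic enzyme PFKM, was the most abundant member in each library. It had 224 counts in the control, 265 at 3 min and 187 at 5 min, or 214 CPM (exact 95% Poisson interval 187 to 244), 274 CPM (242 to 309) and 304 CPM (262 to 351). Its place among all miRNAs was 106th, 101st and 104th. miR-320b had 124, 162 and 89 counts, or 119 CPM (98.6 to 141), 168 CPM (143 to 195) and 145 CPM (116 to 178). Both plasma libraries lay above the control for these 2 miRNAs, and the intervals were apart from the control's for miR-320a at 5 min and miR-320b at 3 min and overlapped it otherwise. miR-320c had 32, 39 and 31 counts (30.6, 40.3 and 50.4 CPM), with overlapping intervals. miR-320d had 18, 22 and 14 counts (17.2, 22.8 and 22.7 CPM), also overlapping. miR-320e had 0 counts in the control and at 3 min, and 2 counts at 5 min. A floor of 3 counts stands at 2.87 and 3.10 CPM in the control and 3 min libraries. The exact 95% Poisson upper limits for 0 counts there were 3.53 and 3.81 CPM.

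miR-484, reported to repress the mitochondrial fission protein FIS1, had 116, 90 and 84 counts, or 111 CPM (91.7 to 133), 93.1 CPM (74.8 to 114) and 136 CPM (109 to 169). It was lowest at 3 min, where the miR-320 members were above control, and all 3 of its intervals overlapped in part. miR-877-5p, the mirtron arm, had 18, 12 and 5 counts, or 17.2 CPM (10.2 to 27.2), 12.4 CPM (6.41 to 21.7) and 8.12 CPM (2.64 to 19.0). Its CPM was lowest at 5 min, within overlapping intervals. miR-451a, which represses YWHAZ in red cell precursors, had 4, 8 and 1 counts, or 3.83 CPM (1.04 to 9.80), 8.27 CPM (3.57 to 16.3) and 1.62 CPM (0.0411 to 9.05), with no order that the counting error can resolve.

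**Figure D1:**
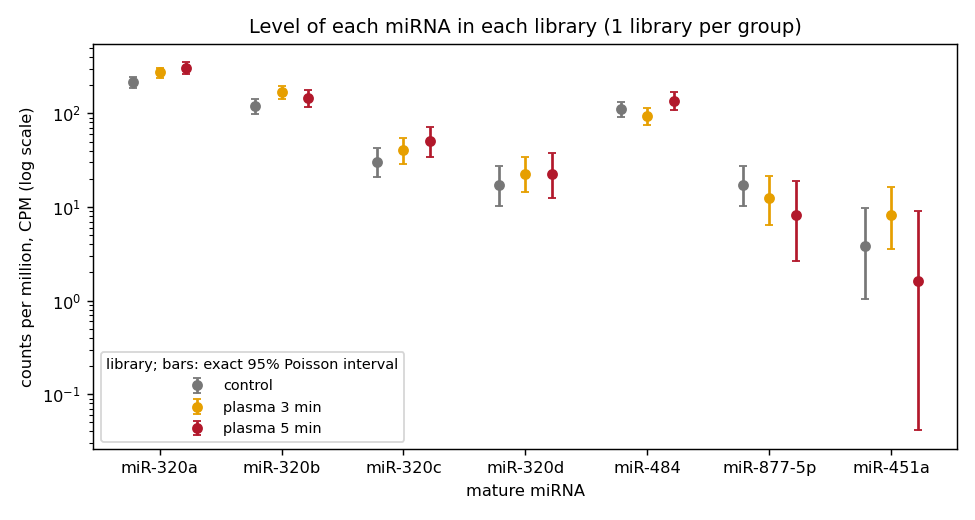
CPM on a log axis for each of the 7 miRNAs (x axis) in the control, 3 min and 5 min libraries (1 library each), with exact 95% Poisson intervals as bars. miR-320a is highest in every library, from 214 to 304 CPM, and miR-451a lowest, from 1.62 to 8.27 CPM.

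In the control the order was therefore miR-320a, miR-320b, miR-484, miR-320c, then miR-320d and miR-877-5p at the same count, and miR-451a. miR-320b and miR-484 were neighbours with overlapping intervals in the control and at 5 min, but at 3 min miR-320b lay above miR-484 (143 to 195 against 74.8 to 114 CPM). The intervals of miR-320c and miR-320d overlapped in all 3 libraries, as did those of miR-320d and miR-877-5p, while miR-484 lay above miR-320c in each. A read of a miRNA spans the whole molecule, so CPM is not divided by length here. Adapter ligation favours some RNA ends, so levels of different miRNAs are not molar amounts.

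Ratios between libraries were taken after TMM scaling (a scaling that trims extreme miRNAs) over 231 miRNAs, those whose counts averaged 20 or more. Of the members, 4 passed this filter: miR-320a, miR-320b, miR-320c and miR-484. miR-320d (mean 18.0 counts), miR-877-5p (11.7) and miR-451a (4.33) did not, and their ratios are given for completeness with wide intervals. Both plasma ratios use the same control library, so a high or low count there moves both. In bulk RNA, a level that differs per cell and a share of cells that differs cannot be told apart.

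At 3 min, the miR-320 family sum (miR-320a to miR-320e) was 488 counts against 398. That is 1.34-fold the control (exact 95% counting interval 1.17 to 1.53, log2 ratio 0.42). miR-320a was at 1.29-fold (1.08 to 1.55) and miR-320b at 1.43-fold (1.12 to 1.82). miR-320c stood at 1.33-fold (0.812 to 2.19) and miR-320d at 1.33-fold (0.683 to 2.64), both with 1 inside the interval. An interval wholly above 1 was seen for 54 of the 231 miRNAs (23.4%) in this comparison. miR-484 was at 0.847-fold the control (0.636 to 1.12), with 202 of 231 miRNAs at a higher ratio. miR-877-5p was at 0.728-fold (0.320 to 1.60) and miR-451a at 2.18-fold (0.585 to 9.90). None of the 4 members past the filter reached 1.5-fold either way, against 28 of 231 miRNAs (12.1%).

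At 5 min, the family sum was 323 counts against 398 in the deeper control, 1.37-fold (1.18 to 1.59, log2 ratio 0.45). miR-320a was at 1.41-fold (1.15 to 1.72), with 48 of 231 miRNAs at a higher ratio. The interval of miR-320b, at 1.21-fold (0.911 to 1.60), held 1. So did those of miR-320c at 1.63-fold (0.963 to 2.76) and miR-320d at 1.31-fold (0.603 to 2.79). An interval wholly above 1 was seen for 67 of 231 miRNAs (29.0%). miR-484 was at 1.22-fold (0.910 to 1.63). miR-320c was the 1 of the 4 members past the filter that reached 1.5-fold, and under scalings over all listed miRNAs it did not (log2 ratio 0.50 with DESeq2 size factors). Over all miRNAs, 67 of 231 reached 1.5-fold either way (29.0%). miR-877-5p was at 0.468-fold (0.136 to 1.31) and miR-451a at 0.421-fold (0.00855 to 4.26, 1 count against 4).

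**Figure D2:**
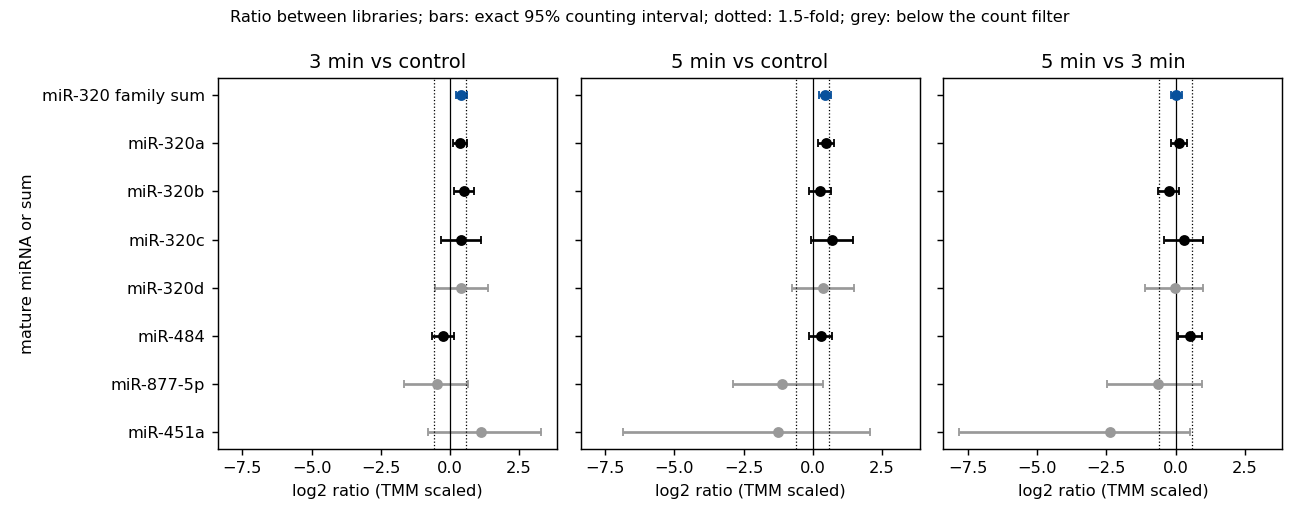
Log2 ratio (x axis, TMM scaled) of each miRNA and of the miR-320 family sum for 3 min against control, 5 min against control and 5 min against 3 min, with exact 95% counting intervals; dotted lines mark 1.5-fold and grey marks miRNAs below the count filter. The family sum lies above 0 in both comparisons with the control (0.42 and 0.45) and near 0 between the exposures (0.03).

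Between the exposures, the family sum at 5 min was 1.02-fold that at 3 min (0.885 to 1.18). miR-320a was at 1.09-fold (0.899 to 1.32) and miR-320b at 0.848-fold (0.647 to 1.11). miR-484 was at 1.44-fold (1.06 to 1.96), the only member whose interval excluded 1 here, as did 58 intervals above 1 (25.1%) and 57 below 1 (24.7%) of 231. Its interval held 1 in 3 of the 7 alternative settings: on the log2 scale it was 0.42 (-0.03 to 0.86) with TMM over all listed miRNAs and with no filter, and 0.39 (-0.05 to 0.84) with DESeq2 size factors over all listed miRNAs. miR-877-5p was at 0.643-fold (0.178 to 1.96) and miR-451a at 0.193-fold (0.00435 to 1.44). None of the 4 members past the filter reached 1.5-fold, against 50 of 231 miRNAs (21.6%).

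Across the 4 members past the filter, the median log2 ratio was 0.39 at 3 min, 0.39 at 5 min and 0.21 between the exposures, beside 0.05, 0.05 and 0.02 over all 231. A scaled ratio above 1, by any amount, was found for 3 of 4 at 3 min and 4 of 4 at 5 min, beside 59.7% and 55.4% of all 231. Between the exposures it was 3 of 4, beside 51.9%. Of these 4, miR-320a, miR-320b and miR-320c can share reads and are not separate observations, so these values largely restate the miR-320 family. The log2 ratio of miR-484 was -0.24 at 3 min, 0.29 at 5 min and 0.53 between the exposures. Among the 135 miRNAs with a mean of 20 to 300 counts, log2 ratios had an SD of 0.59 at 3 min and 1.07 at 5 min, so each of the 4 members lay within 1 SD of their medians of 0.08 and 0.11.

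**Figure D3:**
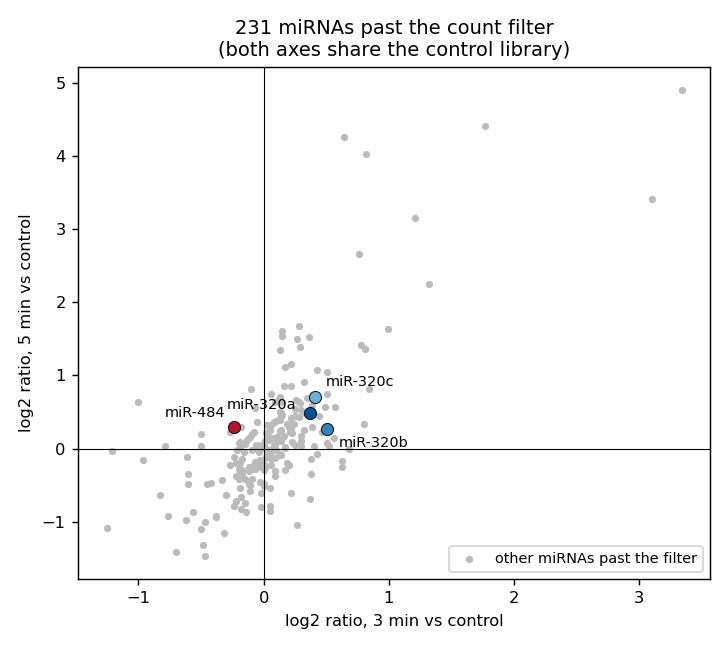
Log2 ratio of 3 min against control (x axis) and of 5 min against control (y axis) for the 231 miRNAs past the count filter, with miR-320a, miR-320b, miR-320c and miR-484 marked; both axes share the control library. The 3 miR-320 members sit at 0.37 to 0.51 on the x axis, and miR-484 sits at -0.24.

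Within the miR-320 family, the proportions of its members varied little. miR-320a made up 56.3% of family counts in the control (exact Clopper-Pearson 95% interval 51.3 to 61.2), 54.3% at 3 min (49.8 to 58.8) and 57.9% at 5 min (52.3 to 63.3). miR-320b made up 31.2% (26.6 to 36.0), 33.2% (29.0 to 37.6) and 27.6% (22.8 to 32.8). miR-320c took 8.04%, 7.99% and 9.60%, and miR-320d 4.52%, 4.51% and 4.33%. For every member the intervals of the 3 libraries overlapped. These shares do not depend on scaling between libraries. They can depend on how reads that fit several members were placed, which is not given in the sources used here. The ratio of miR-320a to miR-320b was 1.81 in the control, 1.64 at 3 min and 2.10 at 5 min, and its fold difference from the control held 1 at both exposures (0.667 to 1.23 and 0.821 to 1.65).

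**Figure D4:**
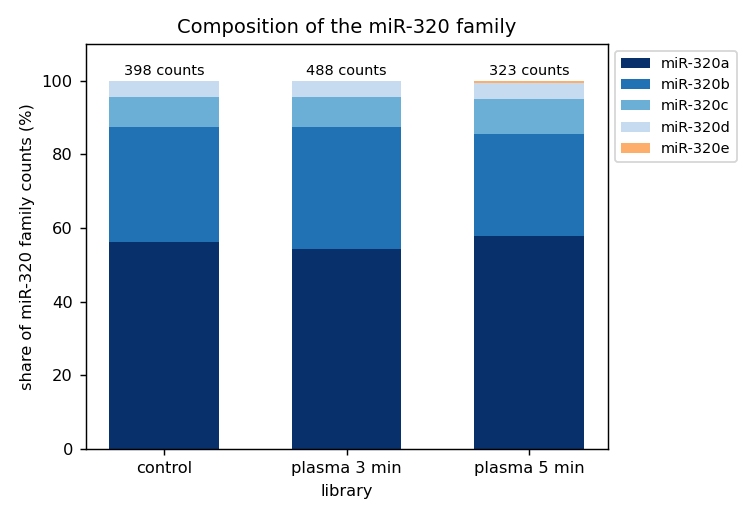
Share of miR-320 family counts (y axis, percent, bars from 0 to 100) taken by miR-320a to miR-320e in each library, with the family total above each bar. miR-320a takes 54.3% to 57.9% in the 3 libraries, and miR-320e appears only at 5 min, with 2 counts.

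The balance of the miR-320 family and miR-484 differed at 3 min. There were 3.43 family counts per miR-484 count in the control (2.78 to 4.26), 5.42 at 3 min (4.32 to 6.87) and 3.85 at 5 min (3.02 to 4.95). The 3 min value was 1.58 times that of the control (exact conditional 95% interval 1.15 to 2.17), and the 5 min value 1.12 times (0.807 to 1.56). The 5 min value was 0.709 times the 3 min value (0.504 to 1). These ratios within a library are free of the scaling between libraries. The difference rests on the single 3 min library.

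The arms of the mirtron miR-877 were nearly balanced. miR-877-5p and miR-877-3p had 18 and 18 counts in the control, 12 and 20 at 3 min and 5 and 7 at 5 min. The 5p arm thus held 50.0% (32.9 to 67.1), 37.5% (21.1 to 56.3) and 41.7% (15.2 to 72.3), all with 50.0% inside the interval. Over the 3 libraries together its minor arm held 43.8% of 80 counts. Of the 115 entries with both arms listed and at least 80 counts, 4 had a minor arm at or above that share, miR-877 included, and the median was 1.92%. This comparison was chosen after the values were seen. The sum of both arms was 36, 32 and 12 counts, 0.970-fold the control at 3 min (0.583 to 1.61) and 0.562-fold at 5 min (0.266 to 1.10). There were more miR-320 family counts per miR-877 count (both arms) at 5 min than in the control, by 2.43 times (1.21 to 5.22). The same ratio at 3 min was 1.38 times the control (0.816 to 2.34), and at 5 min 1.77 times that at 3 min (0.869 to 3.82), both with 1 inside the interval.

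Of a list of 22 mature arms of described or proposed mirtrons, with miR-877-3p among them, 15 were at 0 in all 3 libraries (68.2%) and 1 passed the filter (4.55%), beside 62.7% and 8.93% of all 2588 listed miRNAs. The 1 that passed was miR-1237-5p, with 61, 28 and 56 counts. It stood at 0.501-fold the control at 3 min (interval 0.308 to 0.796) and 1.55-fold at 5 min (1.06 to 2.26). Between the exposures it was at 3.09-fold (1.93 to 5.05), so it was lowest at 3 min. An interval wholly below 1 at 3 min was seen for 33 of 231 miRNAs (14.3%). The opposite arm of miR-1237-5p, miR-1237-3p, had 0 counts in every library. The list summed to 82, 50 and 68 counts. A list of 11 arms derived from small nucleolar RNAs, which Dicer can cut without Drosha, summed to 9, 11 and 17 counts, with 5 at 0 throughout (45.5%) and none past the filter, beside the same 62.7% and 8.93%.

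miR-451a was read beside other blood miRNAs, since it is itself a red cell marker. A list of 5 erythroid arms that includes it summed to 8, 13 and 7 counts (7.65, 13.4 and 11.4 CPM). miR-486-5p, another red cell miRNA, had 3, 3 and 4 counts, miR-144-3p, from the neighbouring hairpin, 0, 1 and 0, and miR-144-5p 1, 1 and 2. miR-486-3p was at 0 in all 3. A list of 4 leukocyte arms summed to 10, 9 and 9 counts, with miR-223-3p at 0. The part of blood-derived or serum-derived RNA in the miR-451a counts was not tested. miR-451b, whose hairpin lies antisense to MIR451A, had 0 counts in every library.

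The miRNAs with log2 ratios most like those of miR-320a, by Euclidean distance over the 2 comparisons with the control, were miR-708-3p (distance 0.0106), miR-339-5p (0.0151), miR-199a-3p (0.0379), miR-101-3p (0.0779) and miR-501-3p (0.0831). miR-320c came 19th and miR-320b 29th, and miR-484 came 106th. Nearest to miR-484 were miR-31-3p (0.0591), miR-331-5p (0.0650), miR-378c (0.167), miR-103a-3p (0.171) and miR-598-3p (0.176), while miR-320a came 129th. With 3 libraries these distances rest on 2 ratios that share the control and are a description only.

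The size of the family's difference from the control depended in part on scaling. Its log2 ratio ranged from 0.35 to 0.42 at 3 min and from 0.24 to 0.46 at 5 min over 8 settings, and the counting interval stayed above 0 in each. The scalings over all listed miRNAs also shifted the median of the 231 miRNAs, to -0.12 (TMM) and -0.16 (DESeq2) at 5 min. Relative to the median of the 231 the family stood 0.37 higher at 3 min and 0.41 higher at 5 min, a difference that no scaling can alter. The set of miRNAs kept can alter it: it was 0.36 and 0.39 with a filter of 10 counts. With no filter it was 0.29 and -0.30, the median at 5 min being 0.58. That setting keeps miRNAs with counts near 0, and zeros took a prior of 0.5 counts. For such miRNAs, equal counts in both libraries give a log2 ratio above 0 at 5 min, because that library is shallower than the control. The value of -0.30 therefore does not place the family below other well-counted miRNAs.

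**Figure D5:**
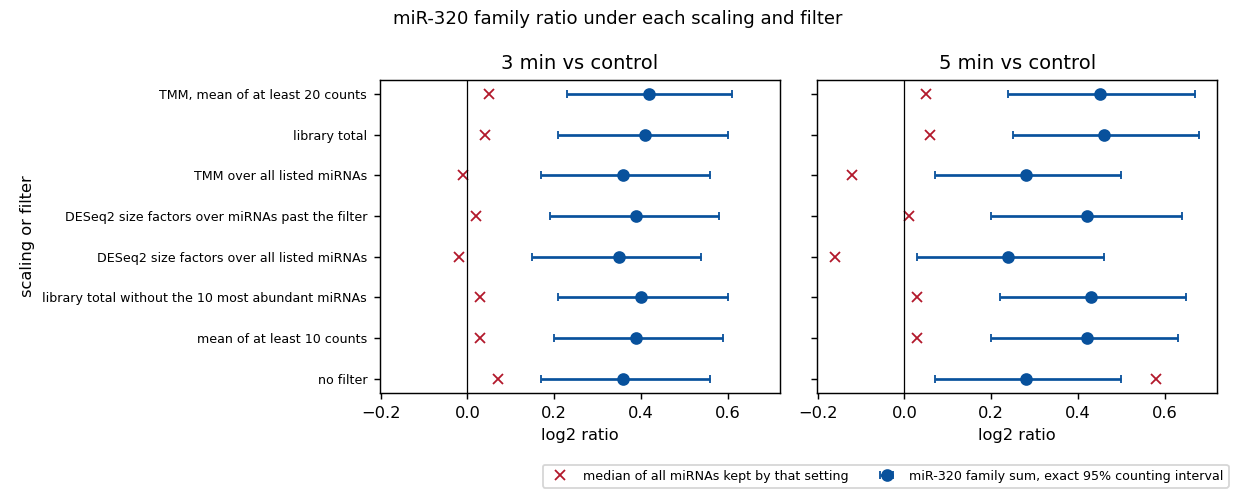
Log2 ratio of the miR-320 family sum (points, exact 95% counting intervals) under each scaling or filter (y axis), for 3 min and 5 min against control, with the median of all miRNAs kept by that setting as a cross. The family interval lies above 0 in every setting. The cross lies at 0.58 at 5 min with no filter, where the 965 miRNAs with any count are kept. There, equal low counts already give a ratio above 0, since the 5 min library is shallower than the control.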

How the data were processed

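Small RNA was sequenced from SK-MEL-2 cells, 1 library for each of 3 groups. Trizol RNA and a NEBNext small RNA kit were used, per the labels' protocols. The deposited files give counts: whole numbers of reads for every mature miRNA. The submitters' processing notes name Bowtie2, bedtools and edgeR without saying what each did. The sources used here do not state the genome build, annotation, trimming, strand setting or how reads matching several miRNAs were handled, so near-identical miR-320 members can share reads. PCR copies cannot be told from separate molecules.

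A miRNA was kept if its 3 counts averaged 20 or more (231 of 2588). Counts were scaled by TMM (edgeR 4.0.16, R 4.3.3), with factors of 1.000, 0.991 and 1.009. Ratios between libraries and ratios within a library carry exact binomial 95% intervals. The fold difference of a within-library ratio between libraries carries an exact conditional 95% interval. The size rule was 1.5-fold. The ratio step was run on simulated counts with known folds and counting error alone. That run cannot show how far replicate libraries would differ. Alternatives were other scalings (DESeq2 1.42.0 size factors among them) and filters of a mean of 10 counts or none. Folds were predicted with RNAfold 2.7.2. Other code ran in Python 3.11.15 with scipy 1.17.1.

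Named miRNAs were the 7 members, miR-320e, up to 4 measured members of each further list (all 5 for pigment cells), and the 5 miRNAs nearest in ratio to miR-320a and to miR-484. Low-count list members, miR-4429, miR-451b, the arm balance of miR-877, the range of 20 to 300 counts and the start window of 250 bases were chosen after values were seen. Members and lists were chosen with earlier results of these data known.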

Additional observations from a re-analysis of the deposited data

How the results depend on the processing

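No result changed direction while past 1.5-fold, and 218 of 231 alternative values stayed within the counting interval or, for counts, within 1.5 times. The number of members at least 1.5-fold from control after 5 min, 1 in the chosen processing, was 0 with TMM or DESeq2 size factors over all listed miRNAs, and 2 with a filter of 10 counts or with none. After 3 min it went from 0 to 1 with no filter, and between the exposures from 0 to 1 with a filter of 10 and 2 with none. Those gains come from miR-877-5p and, with no filter, miR-451a, which these filters let in; with no filter miR-320c fell short of 1.5-fold. All miRNAs at least 1.5-fold went from 28 to 53 (filter of 10) and 463 (none) after 3 min, from 67 to 105 and 578 after 5 min, and from 50 to 87 and 563 between the exposures, because scarcer miRNAs were kept. After 5 min, 40 were higher and 27 lower, against 27 and 40 with TMM, and 27 and 42 with DESeq2 size factors, over all listed miRNAs. Of 27 log2 results, 3 changed sign with the setting, all between the exposures: the members' median (-0.14 to 0.23), the family sum (-0.10 to 0.06) and miR-320a (-0.01 to 0.15). With no filter, zeros took a prior of 0.5 counts. No paired analysis was possible because each group is 1 library, and no library could be left out. At this depth the intervals of miR-320c, miR-320d, miR-877-5p and miR-451a held 1 in every comparison. The interval of miR-484 between the exposures held 1 in 3 of 7 alternatives.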
